A study of Mus musculus with 6 samples.

Results

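The genes described here are 44 genes of the cell cycle and of DNA replication, a set that marks dividing cells. They were chosen by name, with earlier results of these data known. Of these, 43 had a row in each of the 6 deposited gene tables of 22651 genes. The remaining gene, Kif11, was not analysed here. By role, they were 14 genes of DNA replication, 5 cyclin and kinase genes of the G1 to S transition, 3 genes of transcription factors and 21 measured genes of late S phase, G2 and mitosis. All 43 passed edgeR's filter on low counts, which left 13969 genes to test.

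Messenger RNA was measured in newborn (postnatal day 0) telencephalon, the forebrain region that includes cortex and striatum. The 3 TSC1 mice carried TSC1 flox/flox;Emx1-cre/+ and the 3 WT mice TSC1 flox/flox;Emx1 +/+, so every mouse had the floxed gene and the groups differed in Cre. Cre recombinase is made from the Emx1 locus, which is active in the embryonic dorsal cortex, so the tissue also held cells in which Cre is not made. A library was made from the tissue of 1 mouse, and in such bulk tissue a smaller number of dividing cells and less RNA per dividing cell cannot be told apart.

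A cell that is about to divide passes from G1 into S phase, copies its DNA once, and separates the copies in mitosis. In late mitosis and G1 the loading factors Cdc6 and Cdt1 place the ring of Mcm proteins on origins of replication, and in S phase the ring is opened into a helicase and followed by polymerases, the clamp Pcna and the enzymes that supply deoxynucleotides. Genes of replication are classically switched on by E2F transcription factors before S phase. Genes of mitosis are switched on later, by B-Myb and FoxM1, through a promoter element called the cell cycle genes homology region. In the newborn telencephalon the dividing cells are mostly progenitors of the ventricular and subventricular zones, together with precursors of glia and cells of blood vessels.

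Total expected counts, RSEM's estimates of the reads that came from each gene, ranged from 14119365 to 17772865 per library, and 3 counts, the smallest taken as a detection, were worth between 0.169 and 0.212 CPM, the count scaled to the library total. Counts of the 43 genes ran from 25 to 4751 per library and were whole numbers, within 0.005, in every library. RSEM had thus not divided their reads with other genes. This does not show that every read came from these genes, since exons of 12 of the 43 overlap those of another gene. Tsc1, of which Cre removes only part, had 50.23, 31.99 and 28.42 TPM in the WT mice and 27.09, 21.73 and 22.42 TPM in the TSC1 mice, with values in the order of replicates 1, 2 and 3 here and throughout (log2 fold change -0.66, edgeR adjusted p = 0.1). TPM is the share of a library's transcripts that a gene takes, scaled to a fixed total and corrected for transcript length. Replicate 3 of each group was male by its Xist and Y-linked transcripts, and the other 4 mice were female. Over all genes, TSC1 replicate 3 lay at -3.95 on the first principal component, which held 47.7% of the variance. There it was nearer to WT replicate 1 at -7.43 than to the other TSC1 libraries at 26.5 and 30.3. On the second component, with 19.2%, WT replicate 1 at 26.1 and TSC1 replicate 3 at -18.0 were the extremes. For the genes described here WT replicate 1 stood apart, with the highest TPM of the 6 libraries in 33 of 43. This held for 17 of the 21 genes of S/G2 and mitosis and for 11 of the 14 replication genes. The same count over all genes was not made.

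The replication genes were lower in the TSC1 mice as a group, by small amounts, and the mitosis genes less so. All 14 replication genes had a fitted log2 fold change below 0, with a median of -0.33, against a median of -0.0027 over all 13969 genes and 50.7% of all genes below 0. Of the 21 mitosis genes 20 were below 0, with a median of -0.18. The 5 genes of the G1 to S transition were all below 0 with a median of -0.33, and the 3 transcription factor genes had a median of -0.03. Only Cdt1 passed edgeR's quasi-likelihood test at a Benjamini-Hochberg adjusted p below 0.05, so that 1 of 43 genes was called lower, where 0.659% of all genes were called lower. None of the 43 was called higher, where 0.859% of all genes were, and 1.52% of all genes were called in either direction.

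At an unadjusted p below 0.05, 8 of 14 replication genes, 4 of 21 mitosis genes and 1 of 5 G1 to S genes were lower in TSC1, and none of the 43 was higher. The share of all genes that were lower at this level was 8.93%, 9.04% were higher and 18% were either. The TPM values of all 3 TSC1 mice lay below those of all 3 WT mice for 9 of 14 replication genes, 4 of 21 mitosis genes and 1 of 5 G1 to S genes, where 10.3% of all genes did so. None of the 43 lay wholly higher, where 12.3% of all genes did. For the mitosis genes that share, 4 of 21, was thus nearer to the background than for the replication genes.

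**Figure D1:**
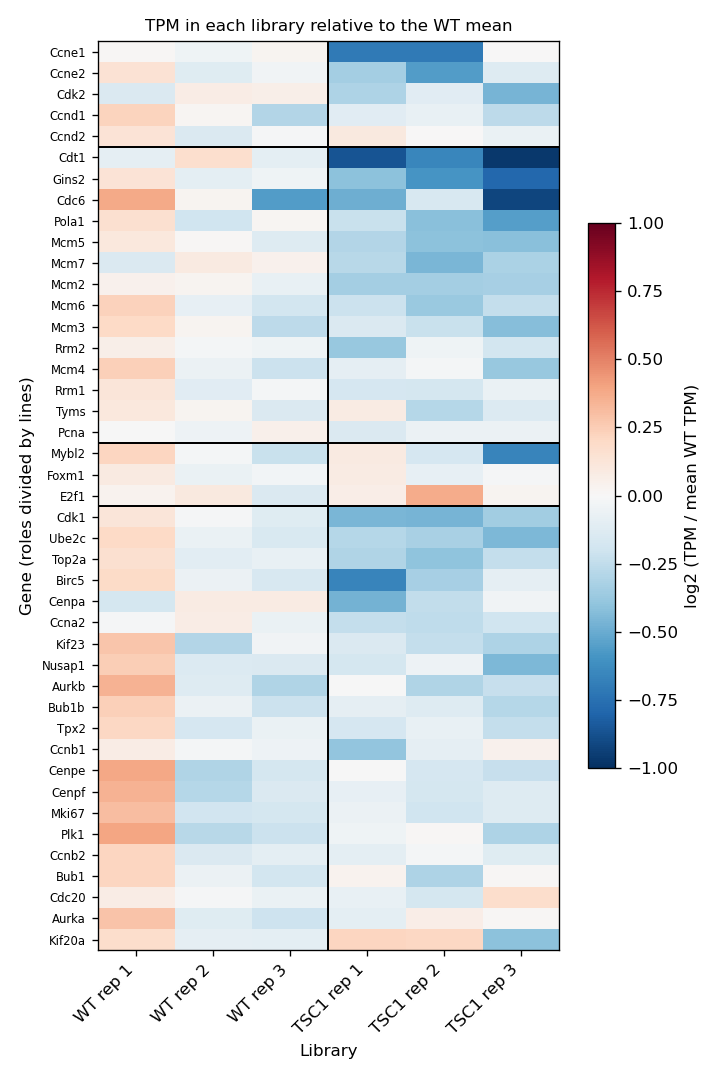
Heat map of the TPM of 43 genes in each of the 6 libraries as log2 of the ratio to the mean of the 3 WT libraries (colour, from blue at -1 to red at 1), with lines dividing the roles (from the top: G1/S, DNA replication, transcription factors, S/G2 and mitosis) and the groups. The replication rows are blue in most cells of all 3 TSC1 columns, while in the mitosis rows WT replicate 1 is the reddest column and the other WT columns are close to TSC1.

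The promoters of these groups differ in sequence, and a few are shown as examples of that. Their relation to the fold changes was not tested. RefSeq's promoter table for GRCm38.p6, the assembly of mm10, held a promoter of 300 bases (250 before and 50 after the start) for 33 of the 43 genes. The motifs were searched on both strands, with overlapping matches counted: an E2F motif with the letters TTTCCCGC, TTTCGCGC, TTTGCCGC or TTTGGCGC, the cell cycle genes homology region (CHR) with the letters TTTGAA, and the CCAAT box. The E2F motif was in 7 of 12 promoters of replication genes, in 1 of 17 of mitosis genes and in 2.26% of all 32851 promoters in the table. The CHR letters were in 12 of 17 promoters of mitosis genes, 1 of 12 of replication genes and 17.9% of all promoters. CCAAT was in 9 of 12 and 15 of 17, and in 37.4% of all. A match is a string of letters and not a shown binding site. Within the 250 bases before the start alone, 6 of 17 promoters of mitosis genes had the CHR letters, against 16% of all promoters. In the other 6 of the 12 they lay only at or after the start. The E2F motif was within those 250 bases in 5 of 12 promoters of replication genes and in 1.86% of all.

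The windows below are the 160 bases before the start on the gene's strand, with every match of the motifs in capitals. Mcm5 (chr8:75109349-75109508, plus strand) and Mcm6 (chr1:128359706-128359865, minus strand) are shown for replication, and both have E2F letters in overlapping matches on the opposite strands. Cdk1 (chr10:69352913-69353072, minus strand), Top2a (chr11:99024190-99024349, minus strand) and Mki67 (chr7:135716380-135716539, minus strand) are shown for mitosis, with CHR letters (TTTGAA or its reverse complement) and CCAAT or its reverse complement. Cdk1 is the mitosis gene that also has an E2F match. For Cdt1 the only match lies after the start, and only 28 bases around it are shown (chr8:122568037-122568064, plus strand).
Mcm5: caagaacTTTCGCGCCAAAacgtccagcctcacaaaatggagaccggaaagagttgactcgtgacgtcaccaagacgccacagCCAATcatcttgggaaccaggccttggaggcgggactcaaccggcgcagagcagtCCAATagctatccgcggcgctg
Mcm6: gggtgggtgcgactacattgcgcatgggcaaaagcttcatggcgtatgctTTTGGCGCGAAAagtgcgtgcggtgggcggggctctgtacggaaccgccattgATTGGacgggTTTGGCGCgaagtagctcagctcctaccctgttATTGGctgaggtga
Cdk1: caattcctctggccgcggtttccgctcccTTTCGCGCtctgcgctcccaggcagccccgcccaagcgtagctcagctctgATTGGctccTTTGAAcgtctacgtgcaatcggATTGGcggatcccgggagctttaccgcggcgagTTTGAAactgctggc
Top2a: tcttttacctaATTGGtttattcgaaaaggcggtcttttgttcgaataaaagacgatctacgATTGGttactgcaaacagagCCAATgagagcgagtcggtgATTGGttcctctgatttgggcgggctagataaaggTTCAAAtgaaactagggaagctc
Mki67: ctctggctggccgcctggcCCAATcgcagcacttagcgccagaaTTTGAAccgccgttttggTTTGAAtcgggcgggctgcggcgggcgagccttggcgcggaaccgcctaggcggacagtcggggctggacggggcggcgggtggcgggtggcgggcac
Cdt1: gaactaccttTTTGGCGCcatggcgcaa

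Among the replication genes, Cdt1 had the largest change. It encodes the factor that brings the Mcm ring to origins and is destroyed once S phase begins, and its gene lies on chromosome 8 (mm10, 122568015 to 122573554, plus strand). Its level was 10.38, 12.45 and 10.35 TPM in WT against 6.08, 7.03 and 5.68 TPM in TSC1, so the highest TSC1 library lay well below the lowest WT library. These values rested on 129, 176 and 118 expected counts in WT and 70, 77 and 71 in TSC1. Cdt1 fell to 55.3% of WT (log2 fold change -0.85 ± 0.159, standard error; edgeR adjusted p = 0.0411). The call was lost without WT replicate 2 (adjusted p = 0.185), WT replicate 3 (0.127), TSC1 replicate 1 (0.172) or TSC1 replicate 2 (0.113), and held without WT replicate 1 (0.0351) or TSC1 replicate 3 (0.0363). It was also lost with limma on log2(TPM + 1) (0.0717) or log2(TPM + 0.1) (0.0958) and without both male mice (0.067). Its log2 fold change stayed between -0.95 and -0.73 over all 17 alternatives, and its adjusted p between 0.00622 and 0.185.

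The other loading factor gene, Cdc6, was the least abundant of the 43, at 2.34, 1.83 and 1.22 TPM in WT and 1.28, 1.61 and 0.95 TPM in TSC1. The groups overlapped, the values rested on 25 to 61 counts per library, and the difference did not pass (log2 fold change -0.52, standard error 0.283, edgeR adjusted p = 0.374). Gmnn, which encodes the inhibitor geminin that binds Cdt1, had 14.31, 12.40 and 13.38 TPM in WT and 11.28, 6.57 and 10.57 TPM in TSC1. Its groups did not overlap, and it did not pass (log2 fold change -0.53, edgeR adjusted p = 0.248).

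The 6 subunits of the Mcm ring, the replicative helicase, were each lower in the TSC1 mean. Their summed level was 211, 199 and 184 TPM in WT and 168, 156 and 158 TPM in TSC1, without overlap. Mcm5 had 24.06, 22.61 and 20.44 TPM in WT and 18.24, 16.79 and 16.78 TPM in TSC1 (log2 fold change -0.40, standard error 0.0911, edgeR adjusted p = 0.0669). Mcm2 had 21.89, 21.63 and 20.19 TPM in WT and 16.79, 16.82 and 16.88 TPM in TSC1 (log2 fold change -0.36, edgeR adjusted p = 0.0771). The TSC1 mice were nearly equal for Mcm2 and lay below every WT mouse.

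Mcm7 had 51.40, 60.71 and 58.78 TPM in WT and 46.92, 41.58 and 45.80 TPM in TSC1 (log2 fold change -0.38, edgeR adjusted p = 0.0986), again without overlap. Its exons overlap those of Ap4m1 and Cops6 on the opposite strand in the GENCODE annotation, and the library kit does not mark strand, so reads of that overlap cannot be assigned with certainty. Mcm6 had 68.09, 54.75 and 51.07 TPM in WT and 49.87, 44.89 and 49.06 TPM in TSC1 (log2 fold change -0.30, edgeR adjusted p = 0.166). For Mcm3 the WT values of 22.29, 19.72 and 16.16 TPM overlapped the TSC1 values of 17.50, 16.60 and 14.47 TPM (log2 fold change -0.29, edgeR adjusted p = 0.271). Mcm4 overlapped as well and had the smallest difference of the 6 (log2 fold change -0.18, edgeR adjusted p = 0.497). With transcript length taken into account, Mcm6 and Mcm7 were present at more than the other subunits, whose WT means lay between 19.4 and 22.4 TPM. Mcm5 and Mcm7 passed the threshold with DESeq2, which called 2.15% of all genes lower (DESeq2 adjusted p = 0.0357 for Mcm5). Mcm5 also passed with sex as a covariate (edgeR adjusted p = 0.0422), a fit that called 691 genes. Mcm7 also passed without WT replicate 1 (edgeR adjusted p = 0.0355), a fit that called 447 genes.

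Gins2 encodes a subunit of the GINS complex that activates the helicase. It had 11.85, 10.10 and 10.46 TPM in WT and 8.12, 7.16 and 6.26 TPM in TSC1, with no overlap (log2 fold change -0.63, standard error 0.184, edgeR adjusted p = 0.123), and its exons overlap those of Gse1 on the opposite strand. The genes of the other GINS subunits, Gins1, Gins3 and Gins4, had log2 fold changes of -0.24, -0.12 and -0.04, and none passed. Pola1, the catalytic subunit of the polymerase that starts each new strand, had 11.54, 9.02 and 10.46 TPM in WT and 8.87, 7.73 and 7.06 TPM in TSC1 (log2 fold change -0.42, edgeR adjusted p = 0.127). Its highest TSC1 value was just under its lowest WT value.

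The clamp Pcna, which tethers polymerases to DNA, was the most abundant of the 43 genes by TPM. It had 159.14, 153.84 and 164.63 TPM in WT and 143.89, 152.56 and 152.72 TPM in TSC1. The groups did not overlap, by a narrow margin, and the difference did not pass (log2 fold change -0.12, standard error 0.0772, edgeR adjusted p = 0.442). Deoxynucleotide supply was measured by Rrm1 and Rrm2, the subunits of ribonucleotide reductase, and by thymidylate synthase, Tyms. Their log2 fold changes were -0.16, -0.23 and -0.13, none had an unadjusted p below 0.05, and only for Rrm2 did the groups not overlap.

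**Figure D2:**
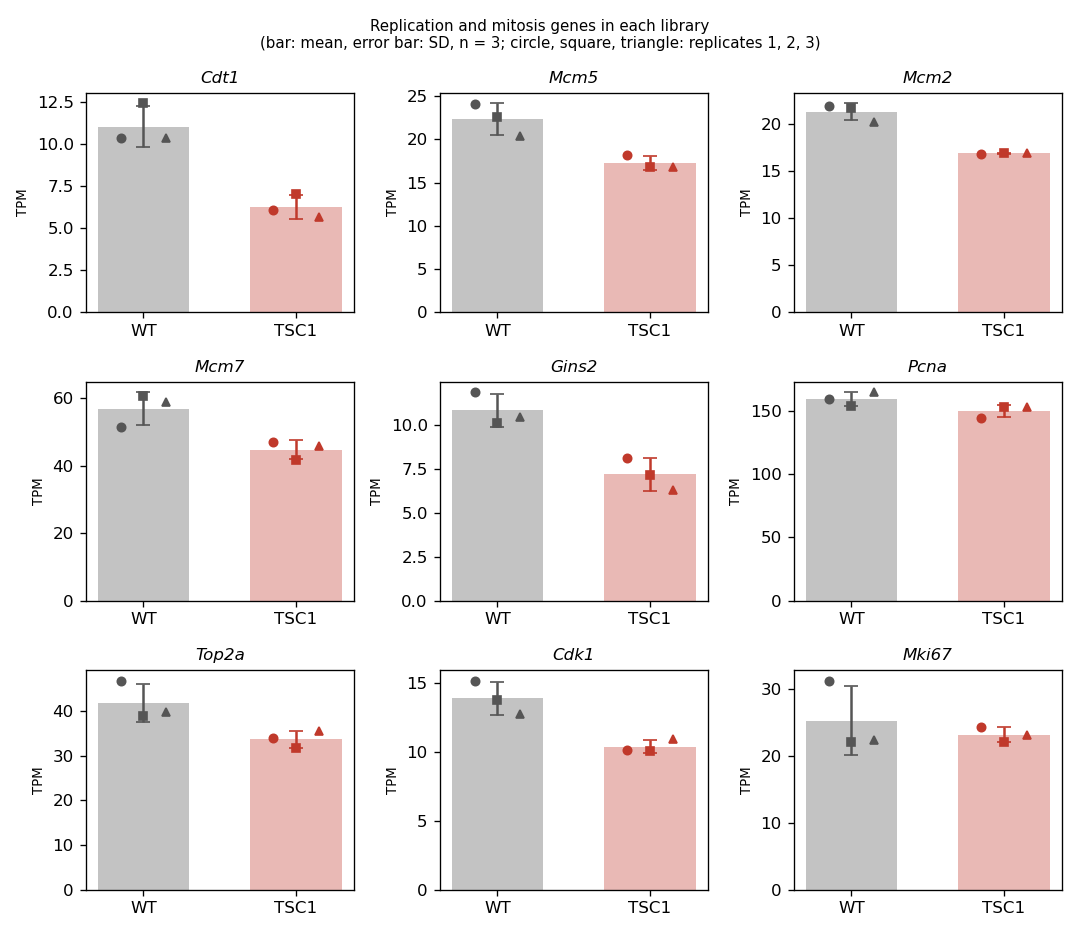
TPM (y axes, from 0) of 9 genes in the 3 WT and 3 TSC1 mice, with bars for the mean, error bars for the SD and a symbol for each replicate. For Cdt1, Mcm5, Mcm2, Mcm7, Gins2, Top2a and Cdk1 all TSC1 points lie below all WT points, Pcna is separated by a margin that is small against its level, and for Mki67 the WT replicate 1 point lies far above the other 5.

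The genes of the G1 to S transition were not uniform. Ccnd2, the most abundant cyclin gene, had 143.05, 117.41 and 129.09 TPM in WT and 139.13, 129.88 and 124.10 TPM in TSC1, and its log2 fold change was -0.01 (standard error 0.0741, edgeR adjusted p = 0.95). Its exons overlap an antisense gene, and its sign turned in 6 of 17 alternatives. Ccnd1 had 42.77, 37.15 and 29.94 TPM in WT and 33.87, 34.87 and 30.52 TPM in TSC1 (log2 fold change -0.17, edgeR adjusted p = 0.463), with all TSC1 values inside the WT range. These D cyclins activate Cdk4 and Cdk6 in G1.

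The E cyclins, partners of Cdk2 at the entry to S phase, had larger differences. Ccne2 had 12.65, 10.52 and 11.15 TPM in WT and 9.06, 7.75 and 10.48 TPM in TSC1 (log2 fold change -0.35, edgeR adjusted p = 0.246), and the groups were separated by little at TSC1 replicate 3. Ccne1 had 9.49, 9.14 and 9.56 TPM in WT and 5.76, 5.75 and 9.43 TPM in TSC1 (log2 fold change -0.45, standard error 0.216, edgeR adjusted p = 0.314). Replicates 1 and 2 of TSC1 thus stood far below WT and replicate 3 at the WT level. Without TSC1 replicate 3 the log2 fold change was -0.75 (edgeR adjusted p = 0.0416). That fit left out the library at the WT level and called 799 genes, against 212 with all 6 libraries. Cdk2 had a log2 fold change of -0.33 (edgeR adjusted p = 0.299) and overlapping groups.

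The transcription factors that switch these genes on showed no common difference. E2f1, an E2F that activates replication genes, had 13.58, 14.21 and 12 TPM in WT and 13.89, 17.2 and 13.49 TPM in TSC1, with overlapping groups (log2 fold change 0.13, edgeR adjusted p = 0.649). Foxm1 was at -0.03 (adjusted p = 0.91), and its exons overlap other genes on its own strand. Mybl2, which encodes B-Myb, had 3.77, 3.20 and 2.78 TPM in WT and 3.46, 2.89 and 2.06 TPM in TSC1 (log2 fold change -0.25, edgeR adjusted p = 0.587), and its groups overlapped.

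Among the genes of S/G2 and mitosis, Cdk1 and Top2a differed most clearly, and neither passed the adjusted test. Cdk1, the kinase that drives entry into mitosis, had 15.14, 13.75 and 12.77 TPM in WT and 10.12, 10.08 and 10.89 TPM in TSC1 (log2 fold change -0.45, standard error 0.115, edgeR adjusted p = 0.0905). Top2a, the topoisomerase that untangles sister DNA, had 46.87, 38.94 and 39.91 TPM in WT and 34.11, 31.76 and 35.54 TPM in TSC1 (log2 fold change -0.33, edgeR adjusted p = 0.0874). Top2a passed with DESeq2, with sex as a covariate and without TSC1 replicate 3, fits that called 640, 691 and 799 genes. Ccna2, the cyclin of S phase and G2, had 38.49, 40.78 and 37.08 TPM in WT and 32.92, 32.48 and 33.82 TPM in TSC1 (log2 fold change -0.26, edgeR adjusted p = 0.15). Ube2c, the ubiquitin enzyme of the anaphase-promoting complex, had 26.59, 22.14 and 20.91 TPM in WT and 19.08, 18.53 and 16.98 TPM in TSC1 (log2 fold change -0.39, edgeR adjusted p = 0.198). The groups of these 4 genes did not overlap, and exons of Ccna2 and Ube2c overlap a gene on the opposite strand.

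The remaining 17 mitosis genes overlapped between the groups. Mki67, whose product coats mitotic chromosomes and is the usual label of dividing cells, had 31.27, 22.18 and 22.46 TPM in WT and 24.29, 22.07 and 23.19 TPM in TSC1 (log2 fold change -0.15, edgeR adjusted p = 0.537). Its WT mean was raised by replicate 1, and without that library the log2 fold change was 0.0061. Ccnb1, the cyclin partner of Cdk1, had 8.51, 7.96 and 7.79 TPM in WT and 6.16, 7.59 and 8.31 TPM in TSC1 (log2 fold change -0.16, edgeR adjusted p = 0.637). Birc5, a subunit of the chromosomal passenger complex, was at -0.33 (adjusted p = 0.367) and the centromeric histone gene Cenpa at -0.27 (adjusted p = 0.441). The kinases Aurka and Plk1 and the anaphase activator Cdc20 were at -0.03, -0.13 and -0.04, and Kif20a, a kinesin of cytokinesis, at 0.0064.

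**Figure D3:**
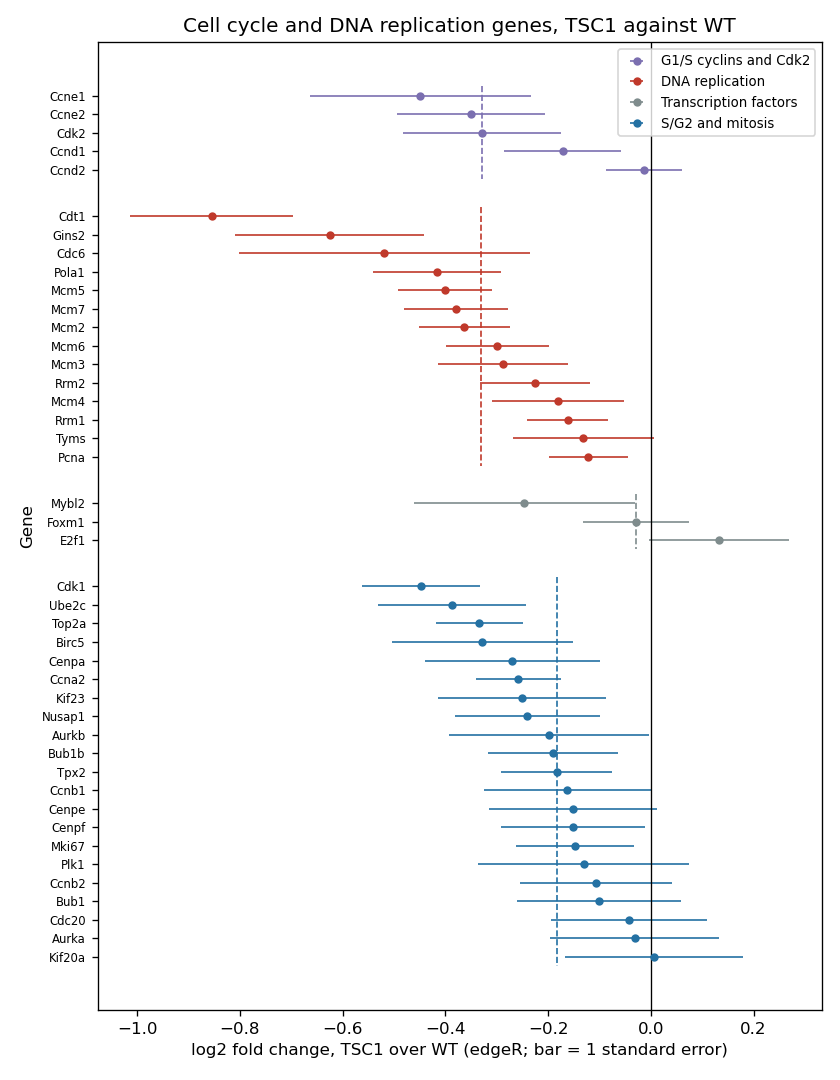
Fitted log2 fold change of TSC1 over WT (x axis; bars, 1 standard error) for each of the 43 genes (y axis), ordered within 4 roles, with dashed lines at the median of each role. The replication genes reach from -0.85 for Cdt1 to -0.12 for Pcna, and the mitosis genes from -0.45 for Cdk1 to 0.0064 for Kif20a.

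Set side by side in each mouse, the replication genes separated the groups further than the mitosis genes. Their mean log2 CPM was 4.48, 4.41 and 4.34 in WT against 4.08, 4.10 and 4.01 in TSC1, a difference of -0.35 with SDs of 0.07 and 0.05 (n = 3 each). The mitosis genes were at 3.88, 3.62 and 3.63 in WT and 3.50, 3.53 and 3.53 in TSC1, a difference of -0.19 with SDs of 0.15 and 0.02. The TSC1 mice were thus below every WT mouse in either set, and for mitosis genes the gap between the nearest mice was smaller. The replication mean less the mitosis mean was 0.60, 0.79 and 0.71 in WT and 0.58, 0.57 and 0.48 in TSC1, and WT replicate 1 lay close to the TSC1 mice on this measure. No test was made of these means, since the genes were picked as a set.

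WT replicate 1 decided much of the mitosis value. Without it the median of the mitosis genes was -0.08 and 15 of 21 were below 0, while the replication genes had a median of -0.27 and all 14 stayed below 0. Without TSC1 replicate 3, the TSC1 mouse nearest to WT on the first principal component, the medians were -0.34 for replication and -0.16 for mitosis. All 14 replication genes were below 0 in each of the 17 alternatives.

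**Figure D4:**
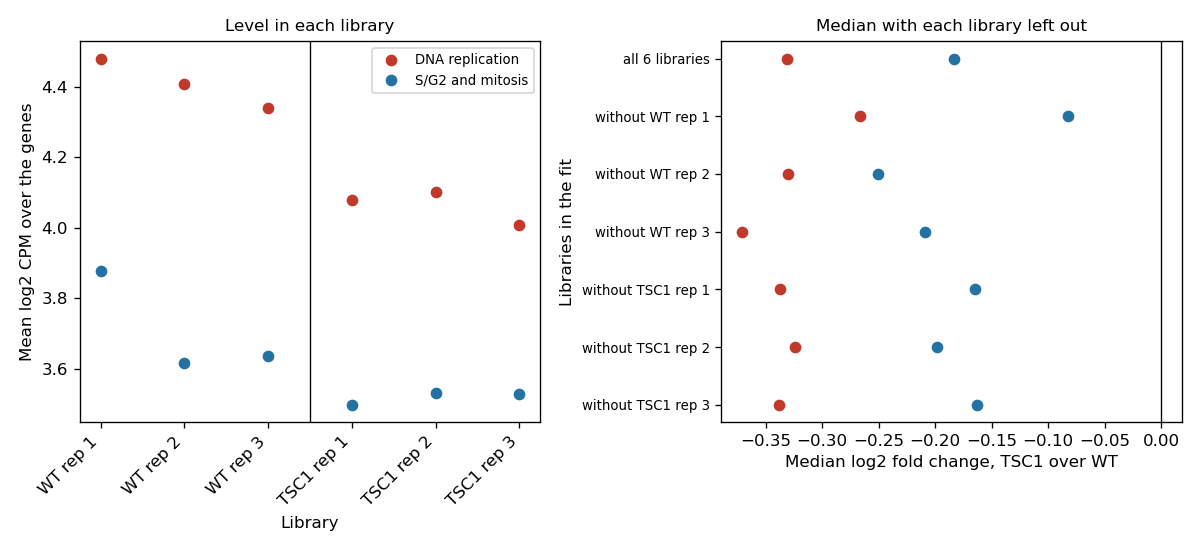
Left, mean log2 CPM (y axis) of the 14 replication and 21 mitosis genes in each library (x axis), where the 3 TSC1 points of each set lie below its 3 WT points. Right, median log2 fold change of each set (x axis) with all 6 libraries and with each left out (y axis), where the mitosis median moves from -0.18 to -0.08 without WT replicate 1.

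A wider list of 43 other replication genes and 48 other mitosis genes covered more of the machinery, though not all of it. Any listed gene without a row in the deposited tables was left out. Of the 43 other replication genes 31 were below 0, with a median of -0.14, and 10 were lower and none higher at an unadjusted p below 0.05. Of the 48 other mitosis genes 39 were below 0, with a median of -0.17, and 3 were lower and none higher at that level. The wider replication and mitosis lists thus had similar medians, unlike the named genes, and at this level the wider mitosis list, with 3 of 48, was below the 8.93% of all genes. WT replicate 1 had the highest TPM for 35 of the 48 and for 20 of the 43 other replication genes.

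While 1.52% of all genes passed the test, Rpa3 was the only gene of these wider lists that did. It encodes the smallest subunit of RPA, which covers single-stranded DNA, and had 54.18, 45.44 and 50.85 TPM in WT and 31.87, 28.57 and 23.49 TPM in TSC1. Rpa3 fell to 54.1% of WT (log2 fold change -0.89, edgeR adjusted p = 0.0299), and the groups were far apart. The call was lost without WT replicate 2 or 3 or TSC1 replicate 1 or 2, with both limma fits and without both male mice, with adjusted p of up to 0.126, and held in 10 of 17 alternatives. The genes of the larger subunits had smaller differences and did not pass, with Rpa2 at -0.29 (edgeR adjusted p = 0.17) and without overlap, and Rpa1 at 0.08 (adjusted p = 0.63). Of the other lower genes, Orc1 had the largest difference, at -0.93 from 7 to 27 counts per library (edgeR adjusted p = 0.214). Tk1, thymidine kinase, was next at -0.71, with 9.95, 8.41 and 6.70 TPM in WT and 4.94, 5.14 and 5.62 TPM in TSC1 (edgeR adjusted p = 0.11). The other subunits of the origin recognition complex, Orc2 to Orc6, lay between -0.02 and 0.13. In the wider mitosis list the largest differences at an unadjusted p below 0.05 were those of Fbxo5, an inhibitor of the anaphase-promoting complex, at -0.51 (edgeR adjusted p = 0.131), and Melk, a mitotic kinase, at -0.38 (adjusted p = 0.255).

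Among 29 tested regulators of G1, Cdkn1b and Mycn passed the test, in opposite directions, where 1.52% of all genes passed in either direction. Cdkn1b encodes p27, an inhibitor of cyclin-dependent kinases that accumulates in cells leaving the cycle. It had 107.08, 102.94 and 104.66 TPM in WT and 144.02, 135.31 and 136.22 TPM in TSC1, and rose to 129% of WT (log2 fold change 0.37, standard error 0.0619, edgeR adjusted p = 0.0297). Mycn, a Myc factor of neural progenitors, had 85.31, 92.19 and 85.37 TPM in WT and 65.79, 72.24 and 65.64 TPM in TSC1, and fell to 75.9% of WT (log2 fold change -0.40, edgeR adjusted p = 0.0479). In both genes the spread within a group was small against the gap between the groups. Both calls were lost without WT replicate 2 or 3 or TSC1 replicate 1 or 2 and with both limma fits, with adjusted p of up to 0.152 for Cdkn1b and 0.222 for Mycn. Mycn was also lost without both male mice (adjusted p = 0.0931 in edgeR) and, at the threshold itself, with RLE scaling, so that Cdkn1b held in 11 of 17 alternatives and Mycn in 9.

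The list as a whole had a median of -0.0015. At an unadjusted p below 0.05, 4 of 29 tested genes were lower and 4 higher, where 8.93% and 9.04% of all genes were. The higher genes that did not pass were led by Cdkn2b, an inhibitor of Cdk4 and Cdk6, at 0.84 from 1.53 to 2.84 TPM in the group means (edgeR adjusted p = 0.176), and Ccng1, cyclin G1, at 0.46 (edgeR adjusted p = 0.0988). The lower genes that did not pass were led by Lin9, a subunit of the complex that works with B-Myb, at -0.44 (edgeR adjusted p = 0.104), and Rbl1, a relative of the retinoblastoma protein, at -0.40 (adjusted p = 0.13). Rb1 itself was at 0.25 (edgeR adjusted p = 0.141).

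**Figure D5:**
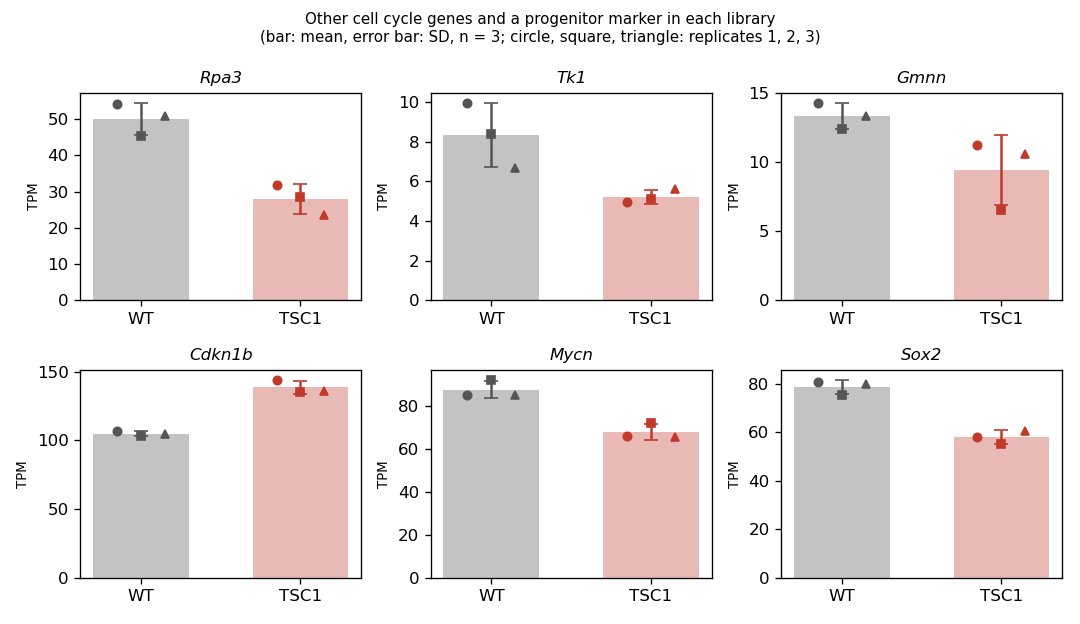
TPM (y axes, from 0) of Rpa3, Tk1, Gmnn, Cdkn1b, Mycn and Sox2 in the 3 WT and 3 TSC1 mice, with bars for the mean, error bars for the SD and a symbol for each replicate. In all 6 panels the groups do not overlap, with Cdkn1b higher and the other 5 lower in TSC1; Tk1 and Gmnn did not pass the adjusted test.

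Markers of the cell types that can divide in this tissue did not all differ in the same direction. Of 9 radial glia genes 8 were below 0 with a median of -0.17, and their summed level ranged from 3151 to 3720 TPM in WT and from 3061 to 3235 TPM in TSC1. Sox2, a transcription factor of neural progenitors, was the gene of that list that passed, at 80.83, 75.32 and 79.96 TPM in WT and 58.12, 55.09 and 60.72 TPM in TSC1 (log2 fold change -0.47, standard error 0.0775, edgeR adjusted p = 0.0297). The Sox2 call was lost without WT replicate 2 or 3 or TSC1 replicate 1 or 2 and with both limma fits, with adjusted p of up to 0.155, and held in 11 of 17 alternatives. Pax6, Nes and Vim were at -0.20, -0.17 and -0.10 and did not pass. Intermediate progenitor genes, of the cells that divide in the cortical subventricular zone, had a median of 0.17 over 5 tested genes of 6. Of these 3 were higher and 2 lower, none at an unadjusted p below 0.05. The largest difference was that of Eomes, at 0.46 with overlapping groups (edgeR adjusted p = 0.307). The summed levels were 87.0 to 109 TPM in WT and 92.7 to 124 TPM in TSC1.

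Subpallial progenitor genes, of the ventral telencephalon, had a median of -0.58 over 6 genes. Their summed level was 193 to 229 TPM in WT and 142 to 155 TPM in TSC1 without overlap, and Dlx1 passed (log2 fold change -0.68, edgeR adjusted p = 0.0183), a call lost without WT replicate 3 or TSC1 replicate 1 or 2 and with both limma fits (adjusted p of up to 0.12). Summed oligodendrocyte precursor genes were at 172 to 211 TPM in WT and 160 to 172 TPM in TSC1, with a median of -0.12 over 5 genes, and summed endothelial genes at 173 to 231 TPM and 146 to 177 TPM, with a median of -0.48 over 6. Microglial genes summed to 150 to 202 TPM and 148 to 218 TPM with a median of -0.35 over 7, and the 8 neuron genes to 10624 to 11006 TPM and 10808 to 12148 TPM with a median of 0.10. Astrocyte genes overlapped in their sum, at 191 to 292 TPM and 226 to 262 TPM, with a median of -0.08 over 5 genes, 3 lower and 2 higher. Gfap among them passed (log2 fold change 1.09, edgeR adjusted p = 0.00683), a call lost without WT replicate 2 or TSC1 replicate 1 and with both limma fits (adjusted p of up to 0.1). Gja1 went the other way, at -0.69 with overlapping groups (edgeR adjusted p = 0.13).

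Of the genes of choroid plexus and of red blood cells none passed edgeR's adjusted test. At an unadjusted p below 0.05, 4 of 4 and 4 of 5 tested were lower, where 8.93% of all genes were. The 4 choroid plexus genes summed to 1167 to 2454 TPM in WT and 28.8 to 859 TPM in TSC1, and the highest TSC1 value was that of replicate 3. All 4 were lower without overlap, where 10.3% of all genes were. The 7 erythroid genes summed to 1695 to 5568 TPM in WT and 1293 to 1783 TPM in TSC1, with overlapping groups and the highest value in WT replicate 3, and with Hbb-b2 listed at 0 in every library. The part of any of these cell types in the differences of replication and mitosis genes was not tested.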

How the data were processed

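Groups and replicate numbers were taken from the sample titles. Per the study's methods, trimmed paired-end reads were mapped with MapSplice2 on the mm10 genome, and RSEM 1.2.12 estimated abundances; the gene annotation is not given in the sources used here. The library kit does not mark strand. The deposited expected counts are unnormalized estimates per gene, the deposited TPM values are scaled by RSEM for effective length and depth, and the deposited effective lengths were used in an alternative only.

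After rounding, expected counts entered a model in edgeR 4.0.16 (R 4.3.3, TMM, filterByExpr, quasi-likelihood test, Benjamini-Hochberg over all 13969 genes, called below 0.05). This replaced the authors' permutation-based method, since a count model fits the unit. Mean log2 CPM used a prior count of 2. Cell type sets and gene roles, and the 44 genes themselves, were chosen with earlier results of these data known, so no set was tested. Full values are given for the genes with an unadjusted p below 0.05, for Mki67, Top2a, Ccnd1, Ccnd2, Ccnb1, Cdk1, Mcm2, Pcna and Cdt1, and for the largest difference of each role. For the wider lists the rule named called genes and, in each direction, the 2 largest differences at an unadjusted p below 0.05. Cdc6, E2f1, Tk1, Gmnn, Rb1, Rpa1, Rpa2, Pax6, Nes, Vim, Eomes, Gja1 and the other GINS and Orc genes fall outside the rule. They were chosen after their values were seen. Mcm4, Rrm1, Rrm2, Tyms, Cdk2, Foxm1, Birc5, Cenpa, Aurka, Plk1, Cdc20 and Kif20a were given as examples and were not named in advance.

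Alternatives used RLE and upper-quartile scaling, DESeq2 1.42.0, limma 3.58.1 on log2(TPM + 1) and log2(TPM + 0.1), no filter, at least 10 counts in every sample, effective lengths as offsets, a replicate block, sex as a covariate, and each replicate left out. Leaving out both male mice was added after seeing the data. Replicate numbers were not shown to pair the mice: deviations of same-numbered mice correlated at 0.267, -0.133 and 0.318. The study's methods name littermates without Cre as controls, but which mice shared a litter is not given. All libraries of a group were distinct (chi-square per degree of freedom of at least 5.68). Separate mice are taken from the study's methods. On simulated counts of 13969 genes with 200 changed by 1 on the log2 scale, edgeR recovered 200 with 5 false calls. Every simulated gene had the same dispersion, only genes with higher counts were changed, and no library was made to stand apart. The simulation thus does not show how many such changes are found in these mice. Here none of the choroid plexus genes passed, at a median log2 fold change of -1.97. The largest fitted log2 fold change among the 43 genes was -0.85, for Cdt1. Recovery of changes smaller than 1 was not tested. Positions and exon overlaps are from GENCODE M21 (GRCm38), promoters from RefSeq (GRCm38.p6).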

Additional observations from a re-analysis of the deposited data

How the results depend on the processing

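Over all genes, edgeR called 212 genes, 551 with the replicate block, 691 with sex as a covariate, 346 with no filter and 434 without both male mice, against 640 with DESeq2 and 21 and 17 with limma on log2(TPM + 1) and log2(TPM + 0.1). Leaving out each replicate gave 29 to 799. Of the 43 genes 1 was called, Cdt1, and 1 with the replicate block, whose numbers were not shown to pair the mice; DESeq2 called 4, sex as a covariate 3, and both limma fits and the fit without both male mice 0. At an unadjusted p below 0.05, 12 of 43 were lower and none higher in each of those 3 fits, where 7.72%, 7.57% and 9.35% of all genes were lower. Leaving out each replicate called 0 to 3. With a replicate left out, medians were between -0.37 and -0.27 for replication, -0.25 and -0.08 for mitosis, -0.30 and -0.25 for G1 to S and -0.059 and 0.0026 for transcription factors, whose sign turned without TSC1 replicate 2. The mean of the replication less that of the mitosis genes, -0.16 in the log2 fold change, ranged from -0.21 to -0.11. The G1 to S median was -0.26 with limma on log2(TPM + 1) and -0.23 without both male mice. Ccnd2 ranged from -0.077 to 0.038 with a replicate left out, and turned to 0.016 with both limma fits, 0.038 without WT replicate 1, 0.0040 without WT replicate 3, 0.015 without TSC1 replicate 3 and 0.031 without both male mice, and Mki67 to 0.0061 without WT replicate 1. The calls of Rpa3, Cdkn1b, Mycn and Sox2 were lost, as for Cdt1, without WT replicate 2 or 3 or TSC1 replicate 1 or 2 and with both limma fits, with adjusted p up to 0.126, 0.152, 0.222 and 0.155. Cdt1, Rpa3 and Mycn were also lost without both male mice, and Mycn with RLE scaling. The cause was not tested. With 3 mice a group, a p-value sets the difference between the groups against the spread between these mice. In edgeR that spread is estimated partly from other genes.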
